A study of Mus musculus with 2 samples.

Results

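The immediate early genes are the first genes that a stimulated cell switches on, within minutes and without new protein being made. 10 of them were followed here, chosen by name with earlier results of these data known: Fos, Fosb, Jun, Junb, Egr1, Ier2, Ier3, Dusp1, Zfp36 and Klf6. All probe sets whose only gene symbol in the platform annotation was one of these names were taken, which gave 15 probe sets among the 45101 of the array, or 10 of the 18193 genes named from it. Klf6 was read by 5 probe sets, Jun by 2 and the other 8 genes by 1 each.

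Signals came from whole pancreas of male C57BL/6J mice aged 10 weeks, on 2 Affymetrix mouse expression arrays. In the threonine-deficient group the dams had eaten a diet lacking enough threonine, an essential amino acid, between embryonic days 12.5 and 14.5, and in the control group a control diet over the same days. Both groups of offspring were weaned at 3 weeks onto control diet and were not treated themselves after birth. Each group was 1 pool of RNA on 1 array, so no value has a replicate, a standard deviation between samples or a p-value, and all differences are between single pools. The number of animals in a pool, the time of day and the time from death to extraction are not given in the sources used here.

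Immediate early promoters are held ready by factors that are already in the nucleus. Serum response factor with its ELK partners binds the CArG box, and CREB and its relatives bind the cAMP response element. Kinases of the MAP kinase cascade and rising calcium or cAMP activate these factors, and the transcripts that follow are short-lived. FOS and JUN proteins pair to form the transcription factor AP-1, EGR1 and KLF6 are zinc finger transcription factors, and other members act as brakes. In rodent pancreas the class is known for its response of acinar cells to the secretagogue cholecystokinin, to injury and to cell isolation.

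The promoter letters show which of these switches lie close to the start in the genes that carry the results. RefSeq promoters of GRCm38.p6 were at hand for 8 of the 10 genes, not for Egr1 or Ier2, and the 250 bases before the start were read on both strands. Jun and Klf6 are shown because all their probe sets gave the higher signal in the threonine-deficient pool, Zfp36 as the other gene above the floor with the higher signal there, Dusp1 because its signals were nearly equal, and Fos as the textbook gene of the class. Capitals mark a jun1-type site (TGACATCA), a cAMP response element (TGACGTCA) or its core (TGACG, which the full element contains), or a CArG box. The stretches lie at chr4:95052223-95052472 (minus strand) for Jun, chr13:5861239-5861488 (plus strand) for Klf6, chr7:28379229-28379478 (minus strand) for Zfp36, chr17:26508473-26508722 (minus strand) for Dusp1 and chr12:85473640-85473889 (plus strand) for Fos, each written 5′ to 3′ on the strand of its gene.
Jun: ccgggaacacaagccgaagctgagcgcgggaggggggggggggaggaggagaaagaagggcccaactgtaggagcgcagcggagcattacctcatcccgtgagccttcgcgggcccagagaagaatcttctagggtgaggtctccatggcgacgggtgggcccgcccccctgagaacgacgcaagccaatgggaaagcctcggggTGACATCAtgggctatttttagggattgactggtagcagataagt
Klf6: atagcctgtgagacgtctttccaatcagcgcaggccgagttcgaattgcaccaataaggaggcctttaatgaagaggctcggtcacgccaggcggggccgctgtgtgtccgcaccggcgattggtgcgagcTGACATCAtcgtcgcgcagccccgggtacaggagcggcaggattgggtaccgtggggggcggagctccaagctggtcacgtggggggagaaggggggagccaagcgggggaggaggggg
Zfp36: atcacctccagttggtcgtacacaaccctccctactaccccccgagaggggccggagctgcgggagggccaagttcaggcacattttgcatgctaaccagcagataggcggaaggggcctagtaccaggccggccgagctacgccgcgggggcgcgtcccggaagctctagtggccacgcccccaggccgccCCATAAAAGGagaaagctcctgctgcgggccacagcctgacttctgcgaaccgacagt
Dusp1: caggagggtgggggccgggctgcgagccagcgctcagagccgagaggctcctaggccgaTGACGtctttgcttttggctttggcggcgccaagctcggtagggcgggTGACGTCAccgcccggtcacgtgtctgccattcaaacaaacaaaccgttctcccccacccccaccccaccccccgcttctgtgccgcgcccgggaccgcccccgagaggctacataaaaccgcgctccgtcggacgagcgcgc
Fos: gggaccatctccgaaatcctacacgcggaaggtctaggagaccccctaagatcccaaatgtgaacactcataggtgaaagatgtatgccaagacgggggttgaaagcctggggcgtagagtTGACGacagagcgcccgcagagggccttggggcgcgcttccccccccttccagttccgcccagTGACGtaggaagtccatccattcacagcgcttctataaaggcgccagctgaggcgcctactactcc

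Jun carried the jun1-type site 45 to 38 bases before its start and Klf6 carried the same letters 119 to 112 bases before its own. That site was found in 2.93% of the 32851 promoters of the table. It was added to the search after the letters of Jun and Klf6 had been read, so its presence in both is a description. Dusp1 held the full cAMP response element, as did 1.55% of promoters. The core stood in the promoters of Fos, Fosb, Junb and Dusp1, and in 17.8% of all. Zfp36 held a CArG box 58 to 49 bases before its start, against 1.47% of all promoters. The AP-1 site TGANTCA, in 6.75% of promoters, and the EGR site GCGTGGGCG, in 0.536%, matched none of the 8 windows, and elements farther from the start were not searched.

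No immediate early gene differed 2-fold between the pools. Of the 7 genes above the floor that was put under low signals, Jun, Klf6 and Zfp36 were higher and Ier2, Egr1, Ier3 and Dusp1 lower in the threonine-deficient pool. Jun had the largest ratio of the 7 and was higher in both of its probe sets. Fos, Fosb and Junb lay below the floor in both pools. The floor was a signal of 264.9, the 60th percentile of whichever array had the higher one, and each gene was counted by its probe set of highest mean log2 signal. Of all 10758 genes above the floor on at least 1 array, 2.16% were at least 2-fold apart, so 0 of 7 is near that background. The median log2 ratio of the 7 genes was −0.02, against 0.00 over all genes above the floor. Its sign depended on the floor. With the floor at the 75th percentile, which leaves out Ier3, the median was 0.14 over 6 genes. With the floor at the 50th percentile, which admits Fos and Junb, it was 0.22 over 9 genes, and with no floor, where 24.8% of all genes were 2-fold apart, it was 0.37 over 10.

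**Figure D1:**
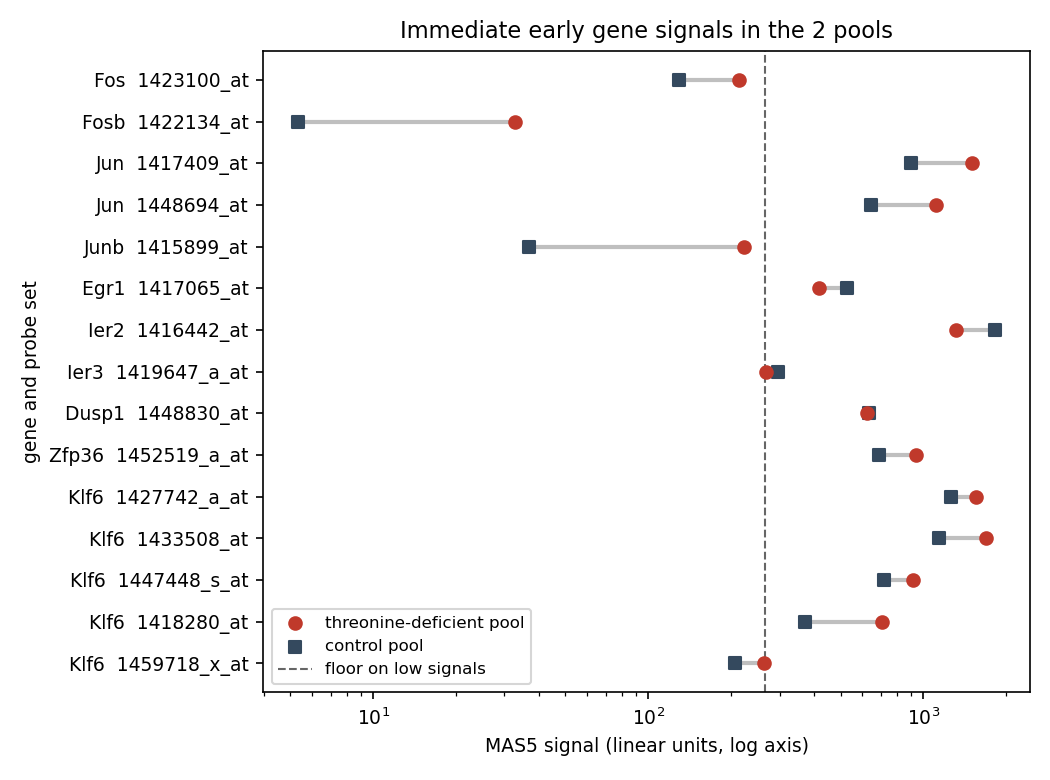
MAS5 signal (log axis) of the 15 probe sets of the 10 immediate early genes, 1 row per probe set, with a red circle for the threonine-deficient pool, a dark square for the control pool and a dashed line for the floor of 264.9. Both Jun and all 5 Klf6 probe sets have the circle to the right, while Fos, Fosb and Junb lie left of the floor in both pools.

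Of the AP-1 subunit genes among the 10, Fos, Fosb, Jun and Junb, Jun was the one read above the floor. Its probe set 1417409_at had a signal of 1508 in the threonine-deficient pool and 898 in the control pool. Its probe set 1448694_at had 1115 in the threonine-deficient pool and 645 in the control pool. Both readings were higher in the threonine-deficient pool, by 1.68-fold (log2 ratio 0.75) and 1.73-fold (log2 ratio 0.79). The spread of log2 ratios among 500 probe sets of like signal, a scaled median absolute deviation used here as the only local measure of noise, was 0.30 for the first and 0.39 for the second, so the ratios were 2.48 and 2.00 times that spread. The 2 readings were 0.04 apart on the log2 scale, against a median gap of 0.31 over the 2133 genes with 2 probe sets above the floor on both arrays.

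Jun is also 1 of 16 genes, or 0.493% of the 3246 genes with at least 2 probe sets above the floor on both arrays, in which every such probe set was at least 1.5-fold higher in the threonine-deficient pool. This count was made after the values of Jun were seen. By its counted probe set alone Jun stands among the 7.20% of genes at least 1.5-fold higher. Both probe sets read the same pool and are annotated to the same transcript record, so their closeness covers probe noise and says nothing of the spread between animals.

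Fos, Fosb and Junb were too dim for a ratio. Fos, the classic partner of JUN, had a signal of 215 in the threonine-deficient pool and 130 in the control pool. Fosb, a FOS relative that also pairs with JUN proteins, had 32.9 in the threonine-deficient pool and 5.33 in the control pool. Junb, a JUN relative that can oppose JUN at shared targets, had 222 in the threonine-deficient pool and 36.9 in the control pool. All 3 were brighter in the threonine-deficient pool, which was also so for 53.6% of the 7435 genes below the floor on both arrays. At that level large ratios are common, since 46.6% of those genes were at least 2-fold apart and 10.2% were at least 5-fold higher in the threonine-deficient pool. No fold is given for them in the reported setting, and a transcript present below the reach of these probe sets cannot be told from an absent one.

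The zinc finger factors went in different directions. Klf6, a factor induced by injury in many tissues, was higher in the threonine-deficient pool in each of its probe sets. Probe set 1433508_at had a signal of 1686 in the threonine-deficient pool and 1139 in the control pool (log2 ratio 0.57). Probe set 1427742_a_at, the one by which the gene was counted, had 1557 in the threonine-deficient pool and 1259 in the control pool (log2 ratio 0.31). These readings differ in size but not in direction. Probe set 1447448_s_at had 918 in the threonine-deficient pool and 717 in the control pool (log2 ratio 0.36). Probe set 1418280_at had 710 in the threonine-deficient pool and 372 in the control pool, 1.91-fold higher (log2 ratio 0.93), the widest gap between pools of any probe set above the floor in the class. The fifth, 1459718_x_at, had 263 in the threonine-deficient pool and 206 in the control pool, both below the floor.

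The 4 readings of Klf6 above the floor spanned 0.63 on the log2 scale, close to the median span of 0.61 over the 239 genes with 4 such probe sets, so the size of its ratio depends on the probe set. They stood at 0.93 to 2.06 times their local spreads. Of the 371 genes with at least 4 probe sets above the floor on both arrays, 6.74% had every one higher in the threonine-deficient pool, as Klf6 did. Probe sets 1447448_s_at and 1459718_x_at are annotated to the same sequence record and may not be separate readings. Probe sequences were not at hand to check this. The suffixes _s_at, _x_at and _a_at mark probes that may be shared between transcripts.

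Egr1, the early growth response factor, had a signal of 417 in the threonine-deficient pool and 529 in the control pool. It was lower in the threonine-deficient pool by a log2 ratio of −0.34, within its local spread of 0.47. With the floor at the 75th percentile, which Egr1 passed only in the control pool, the value was −0.05.

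Of the members that act as brakes, Zfp36 encodes tristetraprolin, which binds AU-rich elements and speeds the decay of early transcripts. It had a signal of 937 in the threonine-deficient pool and 692 in the control pool. This was 1.35-fold higher in the threonine-deficient pool (log2 ratio 0.44), little more than its local spread of 0.38. Dusp1, the phosphatase that switches MAP kinases off, had 625 in the threonine-deficient pool and 636 in the control pool. The 2 signals were nearly equal (log2 ratio −0.02, local spread 0.43).

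The IER genes were both lower in the threonine-deficient pool. Ier2, a small nuclear protein of the early response, had 1310 in the threonine-deficient pool and 1820 in the control pool. It had the lowest ratio of the 7 genes, −0.47, or 1.69 times its local spread of 0.28. Ier3, a regulator of survival signalling, had 269 in the threonine-deficient pool and 296 in the control pool (log2 ratio −0.14). Its signals lie at the floor, where leaving out dimmer probe sets narrows the local spread (0.21).

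**Figure D2:**
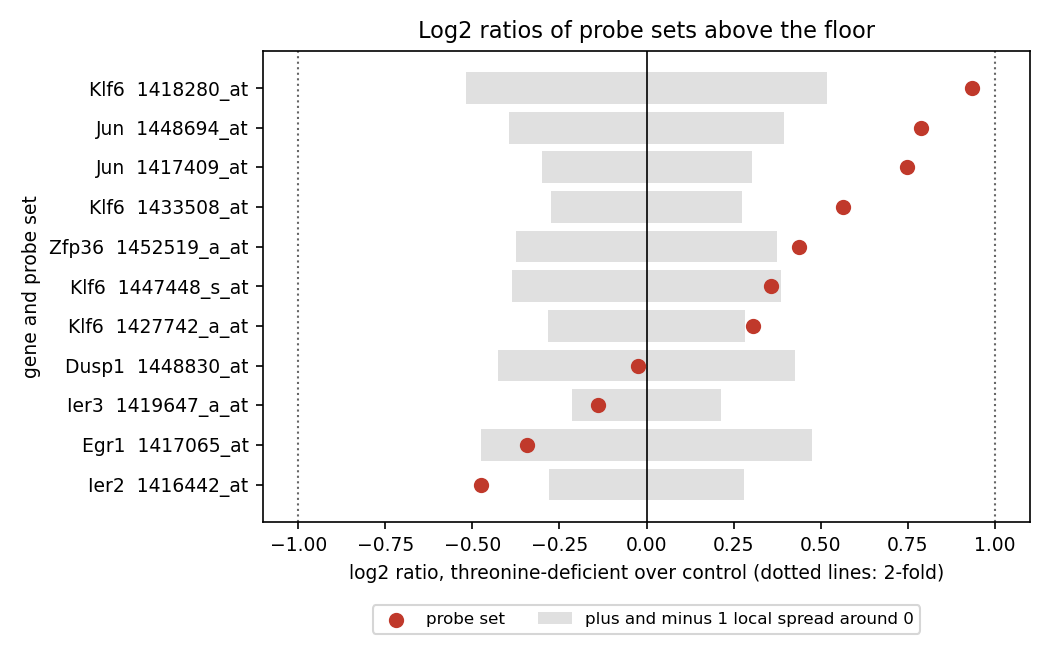
Log2 ratio of the threonine-deficient over the control pool for the 11 probe sets above the floor, ordered by ratio, with grey bars of 1 local spread either side of 0 and dotted lines at 2-fold. The Jun probe sets (0.75 and 0.79) and 2 of the 4 Klf6 probe sets stand farthest right, Ier2 (−0.47) farthest left, and none reaches a dotted line.

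The values can be read beside the control probe sets of the array for actin and Gapdh, 2 genes often used to judge RNA quality. The 3 actin probe sets had log2 ratios of 0.41 at the 3′ end, 0.24 in the middle and 0.33 at the 5′ end, and the 3 Gapdh probe sets −0.34, −0.20 and −0.11 in the same order. The ratio of 3′ to 5′ signal was 1.53 in the threonine-deficient pool and 1.46 in the control pool for actin, and 0.828 and 0.973 in the same pools for Gapdh. Against this range of −0.34 to 0.41, Dusp1, Ier3 and 2 Klf6 probe sets lay inside and Egr1 at the lower end. Zfp36 (0.44) and Ier2 (−0.47) lay slightly outside it, and both Jun and the other two Klf6 probe sets farther above it. The control probe sets had signals of 4872 to 21947, brighter than every member probe set. Their range is therefore no measure of noise at the signal level of the members.

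A list of 18 further genes was picked from the same families and does not cover all their members. Of these, 17 had a probe set and 13 were above the floor. In the threonine-deficient pool 5 were higher and 8 lower, with a median log2 ratio of −0.10. By their counted probe sets none was 2-fold apart. Klf2, a factor of endothelial cells, had 422 in the threonine-deficient pool and 242 in the control pool, so it was at the floor in the control pool and at least 1.59-fold higher. Klf5 had 434 in the threonine-deficient pool and 641 in the control pool (log2 ratio −0.56). Zfp36l1, a tristetraprolin relative, had 2820 in the threonine-deficient pool and 3678 in the control pool (log2 ratio −0.38), with −0.51 in its other probe set. Jund, the JUN relative of most constant expression, had a log2 ratio of 0.23. Fosl2, a FOS relative, went the other way, with 245 in the threonine-deficient pool and 338 in the control pool. Only its control signal passed the floor, so its log2 ratio of −0.35 is a bound. Fosl1, Egr2, Egr3 and Egr4 lay below the floor in both pools.

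Of 36 other early genes, 30 were above the floor, 13 higher and 17 lower, with a median log2 ratio of −0.08. None was 2-fold apart by its counted probe set. Atf3, a stress-induced factor that pairs with JUN, had 437 in the threonine-deficient pool and 191 in the control pool, which makes it at least 1.65-fold higher. Errfi1, an inhibitor of the EGF receptor, had 3990 in the threonine-deficient pool and 2580 in the control pool (log2 ratio 0.63), with 1.18 in its other probe set. Like Jun, it is among the 16 genes with every probe set at least 1.5-fold higher. Gadd45b, a stress sensor, had 1518 in the threonine-deficient pool and 2284 in the control pool (log2 ratio −0.59), but 0.62 in a second probe set and a bound of −0.12 in another. The nuclear receptor gene Nr4a1, induced with Fos in many cells, had −0.50, while Myc had 0.22 and Btg2 −0.16. Each lay within its local spread, of 0.54, 0.23 and 0.22 in the same order.

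The factors and coactivators that act on these promoters had a median log2 ratio of 0.11 over 16 of 20 genes, 10 higher and 6 lower. This list median was 0.01 with the median over probe sets, where a probe set below the floor on both arrays enters as 0. Crtc1, a coactivator of CREB, had 683 in the threonine-deficient pool and 352 in the control pool (log2 ratio 0.95), but 0.09 in a second probe set and at least 0.42 in another. Crem, a CREB relative with repressor forms, had 369 in the threonine-deficient pool and 663 in the control pool (log2 ratio −0.84), while its other probe sets lay below the floor. The acetyltransferase gene Ep300 had 0.46. Srf had 0.13 and Creb1 −0.24, both within their local spreads of 0.53 and 0.35.

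Transcripts of the kinases upstream had a median log2 ratio of −0.03 over 13 of 22 genes, 6 higher and 7 lower. Map2k5 had −0.54, Mapk14, which encodes p38 alpha, 0.36 and Braf −0.35. The other probe sets of Map2k5 and Braf lay below the floor. The exceptions were readings of 269 (Map2k5) and 266 (Braf) in the threonine-deficient pool, just above it. In the threonine-deficient pool a second Mapk14 probe set gave 0.03 and another −0.44, relative to the control pool. The other MAP kinase phosphatases and feedback inhibitors had a median of 0.14 over 13 of 15 genes, 10 higher and 3 lower. That median was 0.01 with the median over probe sets, which again takes probe sets below the floor on both arrays as 0. Of all genes above the floor, 50.1% were higher. Dusp8 had −0.72 but 0.41 in a second probe set, Spry1 had 0.47, and Dusp9, at the floor in the control pool, was at least 1.41-fold higher. The other Dusp9 probe sets lay below the floor in both pools. The arrays read transcript levels, and kinase activity was not measured.

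Stress genes that respond to heat or tissue handling had a median log2 ratio of 0.02 over 10 of 13 genes, 5 higher and 5 lower. Bag3, a co-chaperone, had 1115 in the threonine-deficient pool and 696 in the control pool (log2 ratio 0.68). Hspe1 and Hspd1, the mitochondrial chaperonin pair, had −0.28 and −0.26, although a second probe set of Hspe1 gave 0.12. The inducible Hspa1b had 0.18, and Hspa1a and Hmox1 lay below the floor in both pools. In these 6 related lists no gene was 2-fold apart by its counted probe set, read beside the 2.16% of all genes counted the same way. The other Errfi1 probe set, at 1.18, was past 2-fold.

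**Figure D3:**
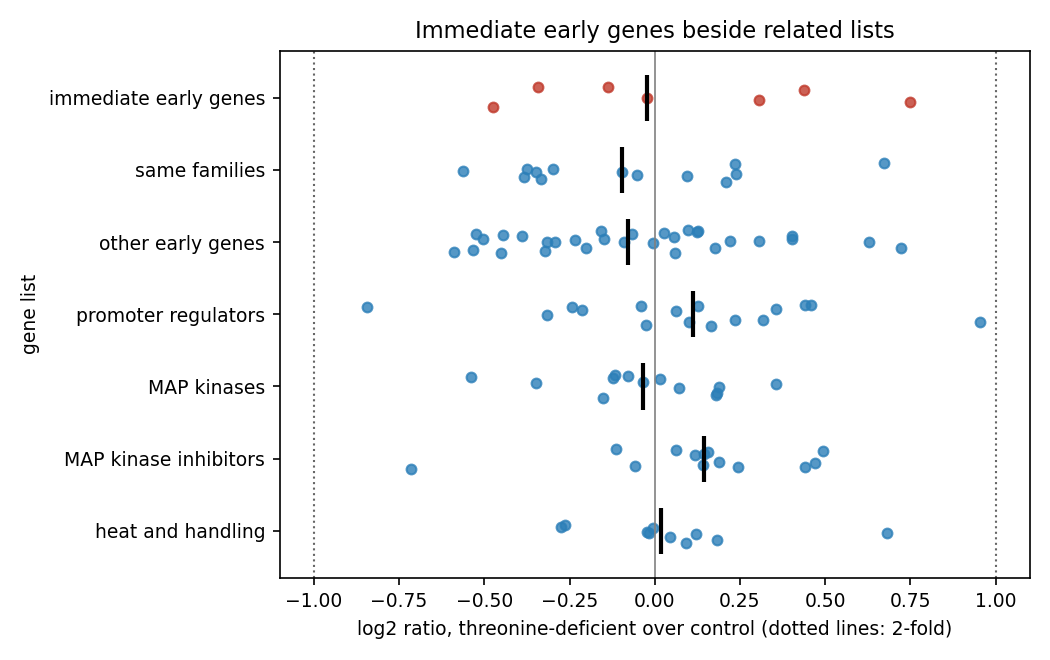
Log2 ratio of the threonine-deficient over the control pool for each gene above the floor in the immediate early list (red, top) and in 6 related lists (blue), 1 point per gene, with a black line at the median of each list and dotted lines at 2-fold. The medians lie between −0.10 and 0.14, and the immediate early genes spread on both sides of 0.

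Markers of several cell types differed between the pools beside these genes. Of the acinar markers, 9 of 9 with a probe set were above the floor on both arrays, with summed signals of 1448245 in the threonine-deficient pool and 1343555 in the control pool. Of those above the floor, 3 of 3 duct markers, 6 of 6 endothelial markers and 5 of 6 macrophage markers were higher in the threonine-deficient pool, with medians of 0.89, 0.39 and 0.40. Their summed signals over all measured markers were 3447, 4216 and 7611 in the threonine-deficient pool, against 1828, 2904 and 7002 in the control pool. Car2, a carbonic anhydrase of duct cells, made up most of the duct difference, with 1541 in the threonine-deficient pool and 349 in the control pool, and the duct median was 0.30 with no floor and 0.33 with the median over probe sets. Of the adipocyte markers 6 of 6, and of the islet markers 7 of 7, were lower, with medians of −1.02 and −0.38, the first −0.64 with the median over probe sets. Summed signals were 23073 and 143132 in the threonine-deficient pool, against 42481 and 174250 in the control pool.

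Fibroblast markers had a median of −0.05 over 5 genes, lymphocyte markers −0.22 over 4 (0.12 with no floor, and 0.08 with the floor at the 50th or the 75th percentile), and the 1 neutrophil or mast cell marker above the floor −0.01. Acinar markers had 0.14 over 9. No marker had a signal of 0. In whole tissue fewer cells of a type and less RNA per cell cannot be told apart. The part of cell makeup in the ratios of Jun, Klf6 and Ier2 was not tested, and with 1 pool a group, diet and any difference in handling or time of collection between the pools cannot be told apart.

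**Figure D4:**
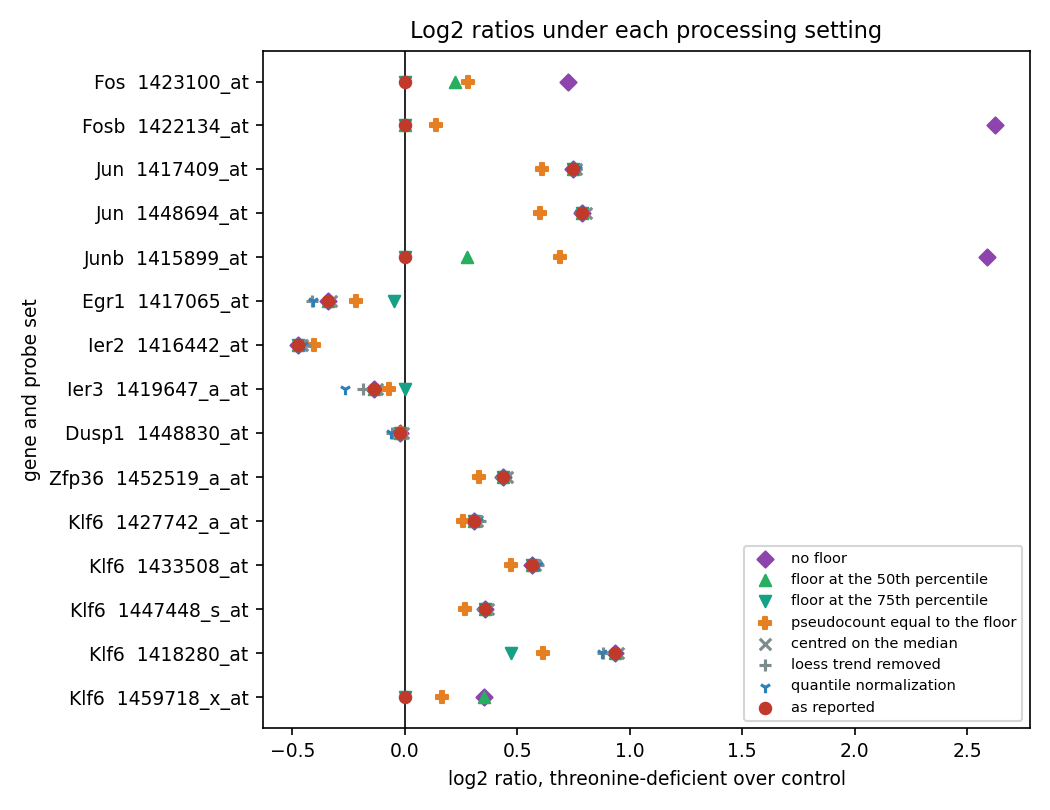
Log2 ratio of the threonine-deficient over the control pool for the 15 probe sets under the reported setting and 7 alternatives that act on single probe sets, 1 symbol per setting. The Jun probe sets stay between 0.60 and 0.80, Ier2 between −0.47 and −0.40, while Junb and Fosb reach 2.59 and 2.62 with no floor; the 4 probe sets below the floor sit at 0 in the reported setting by construction.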

How the data were processed

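RNA pooled from pancreas was labelled with a 3′ IVT kit and hybridised to 1 array per group, per the labels' protocols. The authors deposited 1 linear signal intensity for each probe set. The submitters' processing notes name MAS5, with no version. With 2% of the values taken off either end, both arrays had a mean intensity of 500.0, so ratios compare a transcript with the remainder of the array and a difference in total mRNA cannot be seen. Median signals of the probe sets other than array controls were 183.8 in the threonine-deficient and 164.7 in the control pool. Detection calls were not used here.

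64 control probe sets were left out. Of the rest, 34945 carried 1 gene symbol, 932 several and 9160 none, and 34741 of the first were matched through gene identifiers to RefSeq (GRCm38.p6). Signals below 264.9 were raised to that floor before the log2 ratio was taken. A gene was called apart at 2-fold, and a fold with 1 pool at the floor is a lower bound. Every probe set of the 10 genes was named, and from each related list the 3 genes with the largest absolute log2 ratios. Jund, Fosl2, Nr4a1, Myc, Btg2, Srf, Creb1, Hspa1b, the genes below the floor and the named cell type markers were chosen after their values were seen. Members and lists were chosen with earlier results of these data known.

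With 1 array per group no test was possible, and the number of arrays limits the precision. Alternatives were other floors (50th and 75th percentiles or none), a pseudocount, median centring, a loess trend, quantile normalization, the median over probe sets, and leaving out shared-suffix probe sets. In the median over probe sets, those below the floor on both arrays enter as 0, which pulls a gene towards 0. Calculations used Python 3.11.15 with numpy 2.4.6, pandas 2.3.3 and statsmodels 0.14.6. The procedure was run on simulated data with planted differences larger than any member ratio above the floor. That run therefore does not cover the recovery of ratios of the size reported here.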

Additional observations from a re-analysis of the deposited data

How the results depend on the processing

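No immediate early gene was 2-fold apart in the reported setting or in 8 of the 9 alternatives. The exception was no floor, under which 2 genes, Fosb and Junb, were called and the median log2 ratio was 0.37, a setting in which 24.8% of all genes were 2-fold apart. The direction of Jun, Zfp36, Ier2, Egr1, Dusp1 and the 4 brighter Klf6 probe sets was the same in every alternative run on single probe sets, with Zfp36 between 0.33 and 0.45 and Egr1 between −0.41 and −0.05. Ier3 lay between −0.26 and 0, the last with the floor at the 75th percentile. Ratios of Fos, Fosb, Junb and the fifth Klf6 probe set moved with the floor or pseudocount and gave the 9 member values that moved by more than their local spread. Over all genes the reported setting called 138 higher and 94 lower, and removal of a loess trend 104 higher and 123 lower. The same alternatives were applied to the related lists after the data were seen. Of their named genes, Dusp9 moved most, between 0 and 1.89, and Atf3 reached 1.20 with no floor. The median over probe sets was 0 for Klf5, Crem, Dusp8, Dusp9, Map2k5, Mapk14 and Braf. Each has probe sets below the floor on both arrays, which enter as 0 by construction. These medians therefore do not show equal signals in the pools. No paired analysis was possible because each group had 1 pool. The fibroblast median lay between −0.05 and 0.05 and the kinase median between −0.12 and 0.01 over the alternatives, so neither kept its sign. Signals near background limit what can be read for Fos, Fosb, Junb and Ier3.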
